A study of Homo sapiens with 8 samples.

Results

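Tight junctions seal neighbouring epithelial cells to each other, and 8 genes of their cytoplasmic plaque and of their non-claudin membrane proteins were followed here in Caco-2 cells given macrophage exosomes. The members were picked by symbol: TJP1, TJP3, CGN and PARD3 of the plaque, OCLN, MARVELD2 and MARVELD3 of the MARVEL family, and F11R, an immunoglobulin-type adhesion receptor. All 8 were among the 58735 genes of the gene table, and all 8 were among the 15084 genes with enough counts to test. Caco-2 is a human colorectal carcinoma line used as a stand-in for intestinal epithelium. The cells were given M2-exo, exosomes of THP-1 cells, a human monocytic leukaemia line (3 libraries), or, as the untreated group, phosphate-buffered saline (3 libraries). The labels call all lines wild type, and M2 names alternatively activated macrophages. The labels give no dose or duration and do not say whether replicates came from separate cultures, so p-values reflect the spread among these 6 libraries alone, which may be technical.

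In the plaque, ZO-1 (encoded by TJP1) and ZO-3 (TJP3) are PDZ scaffolds that tie claudins and occludin to actin, and cingulin (CGN) links ZO proteins to actomyosin. PAR-3 (PARD3) carries the polarity complex that positions the junction. In the membrane, occludin (OCLN) and tricellulin (MARVELD2, enriched where cells meet in threes) are tetraspanning MARVEL proteins, as is MARVELD3, and JAM-A (F11R) binds ZO-1 and PAR-3 through its tail. The intestinal epithelium relies on these proteins for its barrier to solutes and microbes.

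Library totals were 17408745 to 18184325 counts in M2-exo treated cells and 15608937 to 18324599 in untreated cells. Mitochondrial genes took 4.16% of counts in untreated 1 and 7.01% to 8.11% in the other 5 libraries. Untreated 1 and untreated 3 lay at opposite ends of many genes: 16.6% of tested genes were lowest in untreated 1 and highest in untreated 3, and 15.3% were the reverse. The epithelial markers EPCAM, CDH1, KRT8 and VIL1 and the intestinal factors CDX2 and HNF4A were well expressed. The factors were lowest in untreated 1. CDX2 had 556 counts there and 1371 to 1964 in the other 5 libraries, and HNF4A 3260 and 4736 to 6686. KRT20 and LGALS4 had at most 7 counts in any library. The cell type field of the labels reads stem cells, for which no marker was tested. Of 12 macrophage markers 5 had enough counts to test. The whole list summed to 13.1 to 20.1 CPM in M2-exo treated and 16.5 to 21.3 CPM in untreated libraries. CPM are counts scaled to library size with TMM factors. CD14 stood at 6.68 CPM in M2-exo treated and 7.32 CPM in untreated cells, and CSF1R at 4.18 and 3.43 CPM. TYROBP had 0 counts throughout and PTPRC 1 count in all. CD68, also at 0, is overlapped by other gene models. A list of fibroblast markers summed to 70.7 to 94.5 CPM in M2-exo treated and 69.6 to 80.7 CPM in untreated libraries. Most of that was PDGFRA (46.2 CPM in M2-exo treated and 35.7 CPM in untreated cells) and COL1A1 (27.6 and 29.7 CPM). COL1A2, DCN and THY1 had at most 2 counts in any library. Endothelial markers summed to 19.7 to 27.6 CPM in M2-exo treated and 11.2 to 33.9 CPM in untreated libraries.

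Per unit of length, cingulin and JAM-A were the most abundant members and tricellulin the least. Levels between genes are compared here as FPKM (fragments scaled by gene length and library size), which divides by the gene length of the table. CGN stood at 35.2 ± 1.14 FPKM in M2-exo treated and 41.2 ± 4.77 FPKM in untreated cells (SD, n = 3 each). F11R stood at 31.9 ± 2.20 FPKM in M2-exo treated and 34.01 ± 1.13 FPKM in untreated cells. Among the 12533 tested protein-coding genes, their 6-library means of 38.2 and 33.0 FPKM exceeded 91.6% and 89.7% of genes. A middle group held TJP1 at 20.2 FPKM, OCLN at 18.9 FPKM and PARD3 at 18.0 FPKM over the 6 libraries. A lower group held TJP3 at 12.1 FPKM, MARVELD3 at 11.3 FPKM and MARVELD2 at 9.11 FPKM, still above the median of 5.90 FPKM of those protein-coding genes.

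CGN and F11R led in every library, and the middle group lay above the lower group in every library but untreated 3, where TJP3 (16.4 FPKM) exceeded OCLN (15.6 FPKM). The order within the middle and lower groups varied between libraries. CGN exceeded F11R, F11R exceeded TJP1 and PARD3 exceeded TJP3 in 6 of 6 libraries. TJP1 exceeded OCLN in 5 of 6 and OCLN exceeded PARD3 in 3 of 6. TJP3 exceeded MARVELD3 in 5 of 6, and MARVELD3 exceeded MARVELD2 in 5 of 6.

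**Figure D1:**
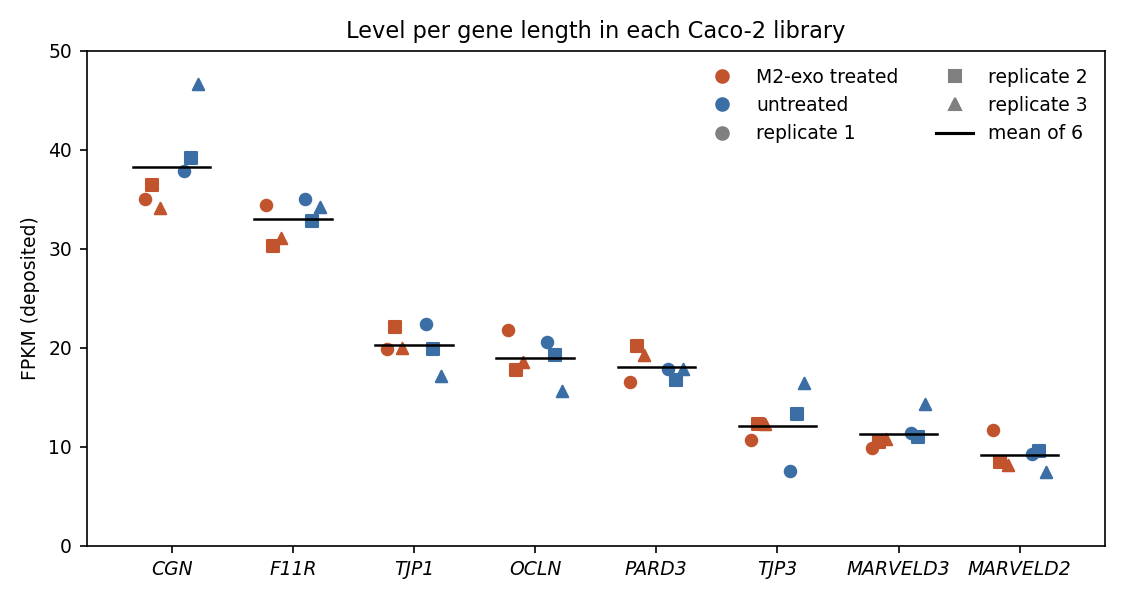
Level per gene length (deposited FPKM, linear axis from 0) of the 8 genes in each of 6 Caco-2 libraries, M2-exo treated in orange and untreated in blue, with the mean of 6 as a line. CGN and F11R lie above the other 6 genes in every library, with means of 38.2 and 33.0 FPKM, and MARVELD2 has the lowest mean, 9.11 FPKM.

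Over OCLN, MARVELD2 and MARVELD3 alone, the summed level was 39.2 ± 3.64 FPKM in M2-exo treated and 39.5 ± 1.96 FPKM in untreated cells. Other MARVEL-domain genes are not in that sum. Occludin made up 49.4% ± 0.885 of that sum in M2-exo treated and 46.7% ± 4.28 in untreated cells. Tricellulin made up 24.0% ± 2.71 in M2-exo treated and 22.2% ± 2.04 in untreated cells. MARVELD3 made up 26.7% ± 3.39 in M2-exo treated and 31.1% ± 6.11 in untreated cells. OCLN has a pseudogene, OCLNP1, with at most 10 counts in any library, and MARVELD3 overlaps the gene PHLPP2. How reads shared between gene models were counted is not stated, so these shares are uncertain.

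After M2-exo, no member passed the test. Of the 8 members, edgeR's quasi-likelihood test called 0 higher and 0 lower (Benjamini-Hochberg adjusted p = 0.9999 for each), and the share called over all 15084 genes was 0%. An unadjusted p under 0.05 was reached by 0 members, and by 111 of all genes tested (0.736%). DESeq2 and limma-voom also called 0 genes, with 124 of 29413 genes (0.422%) and 104 genes (0.689%) at an unadjusted p under 0.05. On log2(FPKM + 1), limma likewise called 0 genes, with 1.15% at an unadjusted p under 0.05. The members' log2 fold changes were above 0 for 4 and below 0 for 4, with a median of -0.02, against a median of -0.01 over all genes tested. Their median size was 0.09, against 0.10 over all genes tested. In a bulk library, less RNA per cell and fewer cells of a type cannot be told apart.

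These libraries measured the members other than TJP3 more tightly than most genes. All 8 also lay above the median FPKM of tested protein-coding genes, and precision was not compared at like levels. The 95% interval of the log2 fold change lay within a 2-fold change in either direction for all 8 members, against 75.8% of all genes tested. It lay within a 1.5-fold change for 6 of 8, the exceptions being TJP3 and MARVELD3. Its half-width ran from 0.29 for F11R to 0.57 for TJP3, with a median of 0.33, against 0.51 over all genes tested.

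Of the plaque scaffolds, ZO-1 mRNA was nearly level. TJP1 (ENSG00000104067, GRCh38 chromosome 15 from 29699367 to 29968865, minus strand) had 226, 249.8 and 228 CPM in M2-exo treated 1 to 3, against 256, 225 and 196 CPM in untreated 1 to 3. The treated values lay inside the untreated range, and the log2 fold change was 0.06 (SE 0.14, 95% interval -0.26 to 0.37).

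ZO-3 mRNA was the member with the widest spread among untreated libraries. TJP3 (ENSG00000105289, chromosome 19 from 3708109 to 3750813, plus strand) had 45.4, 51.8 and 52.2 CPM in M2-exo treated 1 to 3, against 32.3, 56.2 and 70.1 CPM in untreated 1 to 3. All 3 treated values fell between untreated 1 and untreated 2, so the groups overlapped. Its log2 fold change was -0.09 (SE 0.25, -0.66 to 0.49), but -0.33 without untreated 1 and 0.18 without untreated 3. The SD of log2 CPM was 0.11 in M2-exo treated and 0.58 in untreated cells, above 25.9% and 82.5% of all genes tested. TJP3 shared its extremes with the 16.6% of genes that were lowest in untreated 1, where mitochondrial genes took 4.16% of counts, and highest in untreated 3. What part that library difference has in the spread was not tested.

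The ratio of ZO-3 to ZO-1 FPKM moved with that spread. It was 0.538, 0.555 and 0.613 in M2-exo treated 1 to 3, against 0.337, 0.668 and 0.956 in untreated 1 to 3. On the log2 scale it averaged -0.82 ± 0.10 in M2-exo treated and -0.74 ± 0.77 in untreated cells. The difference of -0.08 gave p = 0.9 by an exact 2-sided permutation test over all 20 assignments (adjusted p = 0.9 over the 3 ratios tested; 0.1 is the smallest p that 3 against 3 allows).

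Cingulin mRNA was lower in each treated library than in each untreated one, without passing the test. CGN (ENSG00000143375, chromosome 1 from 151510510 to 151538692, plus strand) had 234, 241 and 228 CPM in M2-exo treated 1 to 3, against 254, 260.25 and 313 CPM in untreated 1 to 3. Means were 234 ± 6.59 CPM in M2-exo treated and 276 ± 32.3 CPM in untreated cells. This gave a log2 fold change of -0.23 (SE 0.13, -0.53 to 0.07; unadjusted p = 0.114), and -0.12 without untreated 3, the highest library. Leaving out untreated 1 gave -0.28, with an unadjusted p of 0.0486 (adjusted p = 0.957), where 2.38% of genes had an unadjusted p under 0.05. Groups that did not overlap were seen for 2 of 8 members, CGN and MARVELD3, both lower in treated cells, against 3.95% of all genes tested (1.65% higher and 2.3% lower).

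PAR-3 mRNA, like that of F11R and MARVELD2, was tighter in untreated than in treated cells by SD of log2 CPM. The other 5 members, and 72.0% of all genes tested, were more variable in untreated cells. PARD3 (ENSG00000148498, chromosome 10 from 34109560 to 34815325, minus strand) had 109, 131 and 127 CPM in M2-exo treated 1 to 3, against 118, 109 and 117 CPM in untreated 1 to 3. Treated 2 and treated 3 lay above all untreated libraries and treated 1 below them, with a log2 fold change of 0.09 (SE 0.14, -0.21 to 0.40).

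Of the MARVEL genes, occludin and tricellulin mRNA were both highest in treated 1 and lowest in untreated 3. OCLN (ENSG00000197822, chromosome 5 from 69492292 to 69558104, plus strand) had 149, 120.2 and 127 CPM in M2-exo treated 1 to 3, against 141, 131 and 107 CPM in untreated 1 to 3. The groups overlapped, with a log2 fold change of 0.06 (SE 0.16, -0.29 to 0.41). MARVELD2 (ENSG00000152939, chromosome 5 from 69415065 to 69444330, plus strand), upstream of OCLN on the same strand, had 63.4, 45.4 and 44.4 CPM in M2-exo treated 1 to 3, against 50.6, 51.6 and 40.6 CPM in untreated 1 to 3. Treated 1 stood alone above the other 5 libraries. The log2 fold change was 0.10 (SE 0.19, -0.33 to 0.53), but -0.06 without treated 1.

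MARVELD3 was the other gene whose treated values all lay below the untreated ones. MARVELD3 (ENSG00000140832, chromosome 16 from 71626161 to 71642114, plus strand) had 64.3, 67.3 and 70.4 CPM in M2-exo treated 1 to 3, against 74.4, 71.2 and 93.1 CPM in untreated 1 to 3. Treated 3 and untreated 2 lay next to each other, and untreated 3 stood above the other 5 libraries. The log2 fold change was -0.24 (SE 0.15, -0.59 to 0.11; unadjusted p = 0.150), and -0.10 without untreated 3. The 3′ end of MARVELD3 overlaps the opposite-strand gene PHLPP2, a phosphatase gene, over 4280 bases. PHLPP2 had 842, 786 and 851 counts in M2-exo treated 1 to 3 and 1072, 942 and 900 in untreated 1 to 3. No source used here says whether counting used strand, so reads of the overlap are uncertain for both genes.

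Relative to occludin, tricellulin varied less between libraries than MARVELD3. The ratio of MARVELD2 to OCLN FPKM was 0.537, 0.476 and 0.441 in M2-exo treated 1 to 3, against 0.452, 0.496 and 0.478 in untreated 1 to 3 (exact permutation p = 0.9; adjusted p = 0.9). The ratio of MARVELD3 to OCLN FPKM was 0.453, 0.588 and 0.583 in M2-exo treated 1 to 3, against 0.553, 0.570 and 0.913 in untreated 1 to 3. Its log2 difference of -0.30 gave an exact permutation p = 0.6 (adjusted p = 0.9), and untreated 3 was again the highest library.

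JAM-A mRNA was the most even member. F11R (ENSG00000158769, chromosome 1 from 160995211 to 161021348, minus strand) had 176, 153 and 159 CPM in M2-exo treated 1 to 3, against 180.2, 167 and 175 CPM in untreated 1 to 3. Its highest value was 1.17 times its lowest, against 2.17 times for TJP3, the widest member. The log2 fold change was -0.10 (SE 0.13, -0.38 to 0.19), and treated 1 lay above untreated 2 and 3. A gene model on the same strand, AL591806.3, overlaps F11R over 23392 bases and had at most 6 counts in any library. How reads of the overlap were counted is not known from the labels, so the level of F11R and its place in the order are uncertain.

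**Figure D2:**
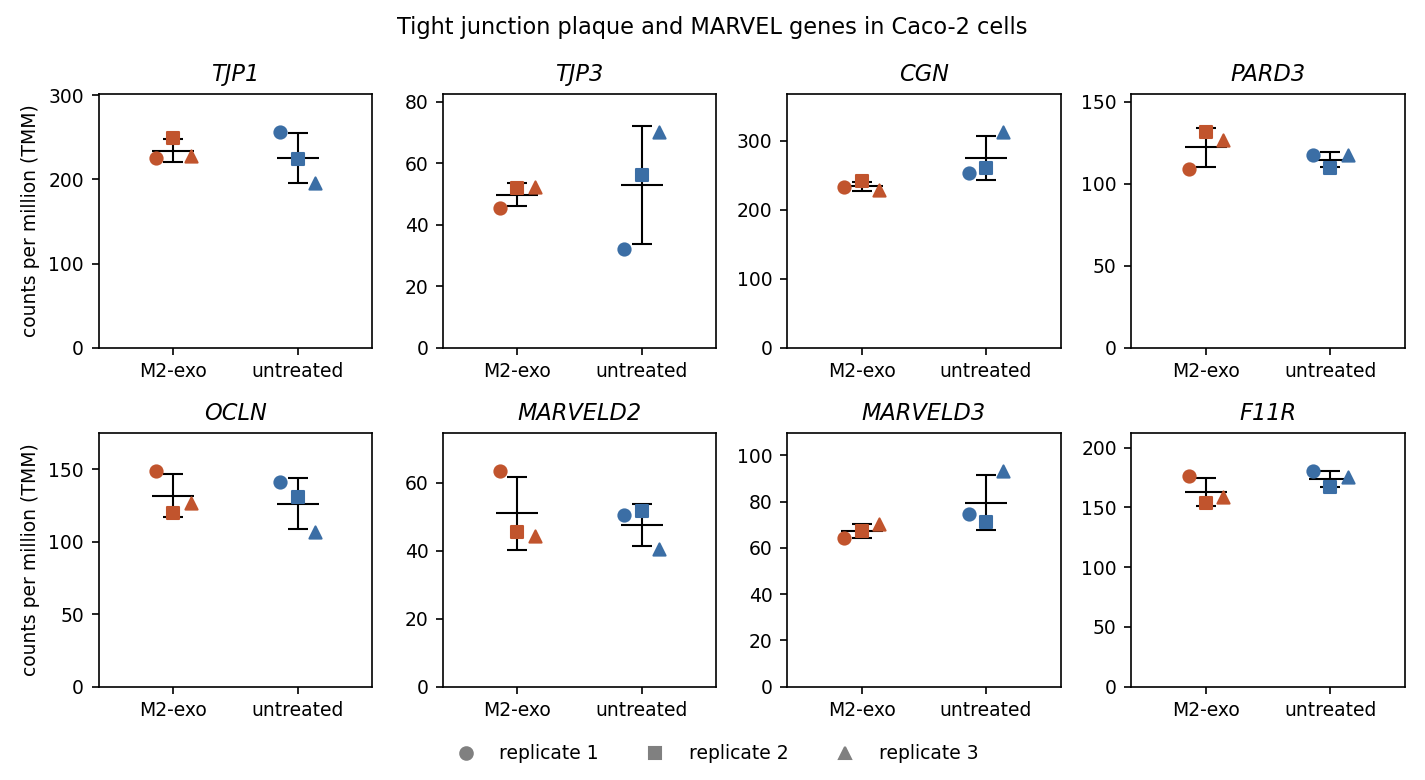
TMM-scaled CPM (linear axes from 0) of each gene in 3 M2-exo treated libraries (orange, left) and 3 untreated libraries (blue, right); marker shape is the replicate number, and bars are the mean ± SD. Only CGN and MARVELD3 show groups that do not overlap, and TJP3 has the widest untreated spread, from 32.3 to 70.1 CPM.

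**Figure D3:**
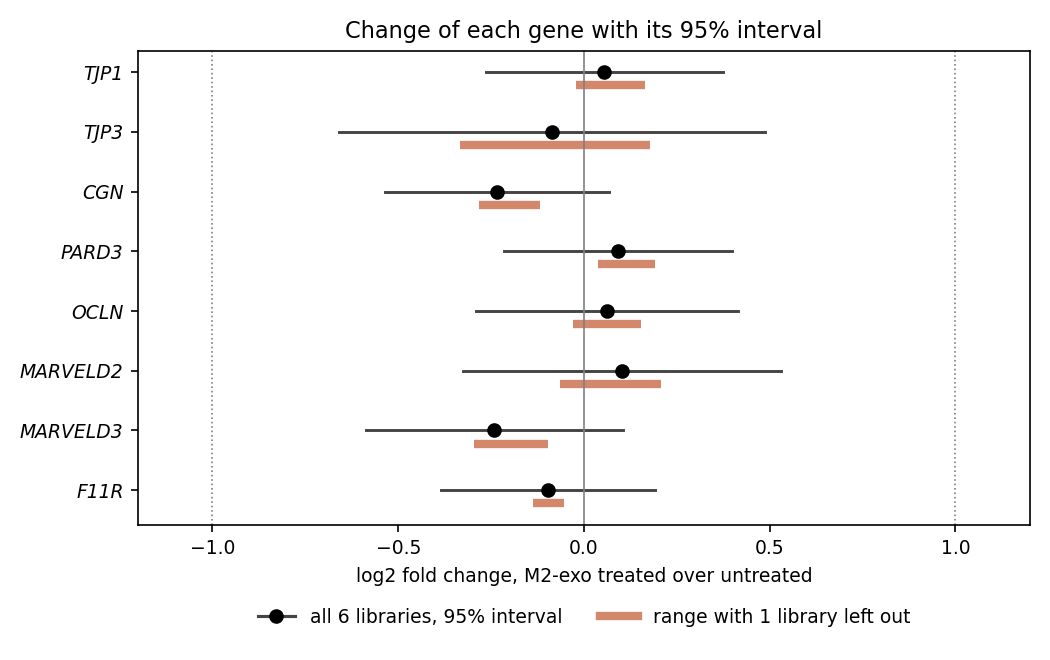
Log2 fold change of each gene, M2-exo treated over untreated, with its 95% interval from edgeR (black) and the range of values when each of 6 libraries is left out in turn (orange); dotted lines mark 2-fold. Every interval crosses 0 and lies inside the dotted lines, from -0.66 at the lowest bound (TJP3) to 0.53 at the highest (MARVELD2).

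Across the 6 libraries the members differed in how alike their profiles were, described here without a test. Likeness was measured as the root mean square difference between log2 CPM profiles, each centred on its own mean, over 6 libraries from both groups. Profiles were not scaled for spread, so a gene of wide spread lies far from most others and an even gene nearer, whatever their shapes. The closest pair was CGN and MARVELD3 (0.064), both highest in untreated 3, followed by OCLN and MARVELD2 (0.092). By this measure TJP1 was about as near to PARD3 (0.13) as to OCLN (0.13), and far from TJP3 (0.45), its paralogue. TJP3 had no near member, the nearest being CGN (0.29), and F11R was nearest to CGN (0.14). The wide spread of TJP3 and the even levels of F11R enter these values, and likeness of shape alone was not measured. Untreated 3 was the highest library for TJP3, CGN and MARVELD3 and the lowest for TJP1, OCLN and MARVELD2. It was the highest library for 27.5% and the lowest for 25.6% of all genes tested.

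**Figure D4:**
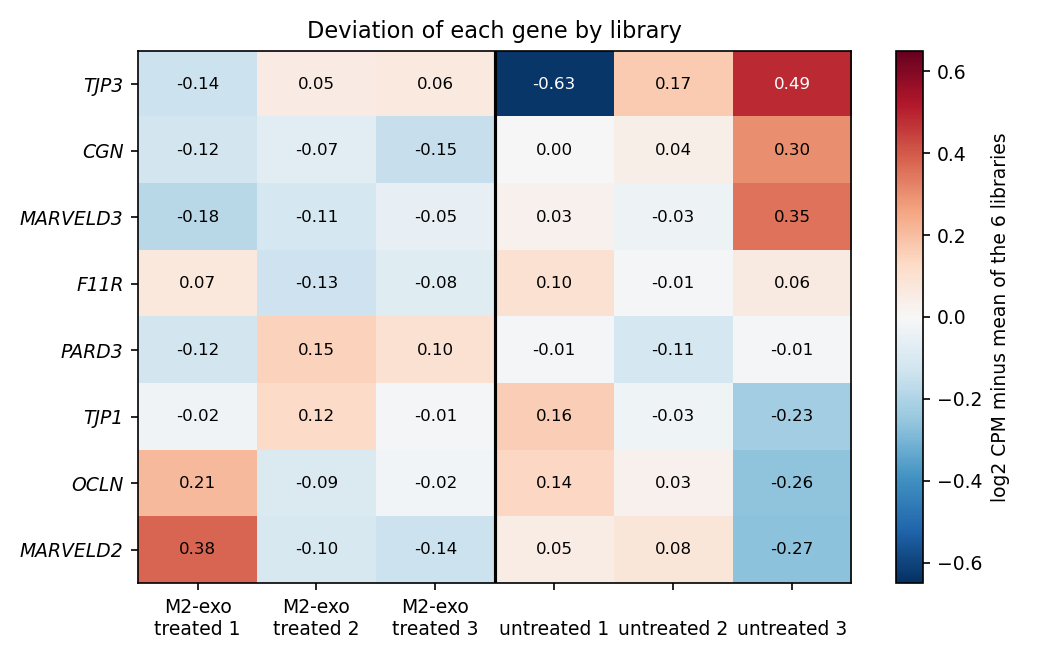
Log2 CPM of each gene minus its mean over 6 libraries, 3 M2-exo treated (left) and 3 untreated (right). TJP3 ranges from -0.63 in untreated 1 to 0.49 in untreated 3, and untreated 3 is high for TJP3, CGN and MARVELD3 and low for TJP1, OCLN and MARVELD2.

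Among 10372 other protein-coding genes of at least 5 CPM, the profiles most like MARVELD3 were those of DGUOK, a mitochondrial deoxyguanosine kinase gene, and BTBD9 (0.032 each, where the median gene differed by 0.27). Those most like CGN were BLVRB, a biliverdin reductase gene (0.043), and CYTH1 (0.046; median gene 0.26). With 6 libraries many genes share such profiles, and these values, which depend on spread as well as shape, describe the libraries only.

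The promoters of OCLN, MARVELD2 and CGN are shown because these genes belong to the closest pairs, while MARVELD3 had no promoter entry. They are RefSeq sequences of GRCh38.p14, from 250 bases before to 50 after a start site, read 5′ to 3′ on the gene's strand. Capitals mark CAGGTG, the E2-box letters that SNAI and ZEB repressors of epithelial genes can bind, and GGGCGG, the GC box, on either strand. They span chr5:69492297-69492596 (OCLN, the first of 2 listed starts, plus strand), chr5:69414866-69415165 (MARVELD2, plus strand) and chr1:151511137-151511436 (CGN, plus strand).
OCLN: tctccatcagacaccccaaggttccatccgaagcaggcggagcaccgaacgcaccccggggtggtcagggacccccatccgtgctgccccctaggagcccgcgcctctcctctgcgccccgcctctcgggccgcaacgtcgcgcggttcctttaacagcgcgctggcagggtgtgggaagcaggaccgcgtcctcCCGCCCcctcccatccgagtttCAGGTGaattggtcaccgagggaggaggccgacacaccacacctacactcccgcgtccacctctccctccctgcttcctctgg
MARVELD2: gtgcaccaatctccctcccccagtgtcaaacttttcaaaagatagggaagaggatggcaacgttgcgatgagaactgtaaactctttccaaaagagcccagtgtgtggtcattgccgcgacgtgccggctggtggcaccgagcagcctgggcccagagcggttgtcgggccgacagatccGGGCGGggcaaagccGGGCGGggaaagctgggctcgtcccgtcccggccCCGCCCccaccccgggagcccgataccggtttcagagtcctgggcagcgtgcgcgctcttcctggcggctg
CGN: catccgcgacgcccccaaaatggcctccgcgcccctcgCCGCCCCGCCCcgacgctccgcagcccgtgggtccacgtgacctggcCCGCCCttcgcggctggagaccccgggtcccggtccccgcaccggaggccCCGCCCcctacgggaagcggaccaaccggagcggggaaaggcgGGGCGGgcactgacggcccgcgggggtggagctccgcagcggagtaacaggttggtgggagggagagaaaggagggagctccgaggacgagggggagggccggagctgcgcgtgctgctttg
The OCLN window held 1 E2-box and 1 GC box, the MARVELD2 window 3 GC boxes and the CGN window 5 GC boxes, of which a pair overlap. The window of the second OCLN start, not shown, held 2 E2-boxes and 0 GC boxes. Over 35116 promoter windows of 300 bases, 20.6% held CAGGTG and 45.0% held GGGCGG on either strand. None of the 3 windows shown held AACCGGTT (a GRHL motif, in 0.134% of windows), TTTATGG (a CDX2 motif, in 2.54%) or CAAAGTCCA (an HNF4A motif, in 0.384%). Their G and C content was 68.0% for OCLN, 64.7% for MARVELD2 and 75.3% for CGN. A match of letters is a description of the sequence, and no binding was measured here.

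The transcription factors that act on such genes did not pass the test either. Of 12 listed, 8 were tested, and 0 were called higher and 0 lower (median log2 fold change 0.02). SNAI2, ZEB1, ZEB2 and TWIST1, mesenchymal repressors, had too few counts to test, while SNAI1 stood at 10.35 ± 3.58 CPM in M2-exo treated and 7.43 ± 3.65 CPM in untreated cells (log2 0.47, SE 0.40). GRHL2, an activator of epithelial junction genes, stood at 76.0 CPM in M2-exo treated and 79.2 CPM in untreated cells (log2 -0.06), and KLF5 at 133 CPM in each.

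The partners of the members in the junction gave 0 calls as well. Over all 9 lists, 80 of 103 genes were tested, of which 0 were called higher and 0 lower. Log2 fold changes were above 0 for 42 and below 0 for 38 (median 0.006), and 1 gene had an unadjusted p under 0.05. The 1 gene was CMTM7, of the MARVEL-domain list, at 25.8 CPM in M2-exo treated and 19.8 CPM in untreated cells (log2 0.38, SE 0.16, unadjusted p = 0.0433, edgeR adjusted p = 0.9999).

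Plaque adaptors had a median of -0.0003 over 10 tested genes, with 0 called. The actin-linking scaffold AFDN was at 235 CPM in M2-exo treated and 224 CPM in untreated cells (log2 0.07), and YBX3, the ZO-1-associated Y-box factor, at 218 CPM in M2-exo treated and 204 CPM in untreated cells (log2 0.10). CDC42, the polarity GTPase, was at 0.433 CPM in M2-exo treated and 0.610 CPM in untreated cells and is overlapped on its strand over 40320 bases by AL031281.2. No source used here says how reads in overlapping gene models were counted, so the level of CDC42 is uncertain.

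Polarity genes had a median of 0.01 over 17 tested, with 0 called. PRKCI, the atypical protein kinase C that binds PAR-3, was at 109 CPM in M2-exo treated and 97.5 CPM in untreated cells (log2 0.16), and DLG1, a lateral-domain scaffold, at 127 CPM in M2-exo treated and 143 CPM in untreated cells (log2 -0.17). Relatives of JAM-A had a median of -0.08 over 5 tested, with CXADR at 0.02 and JAM3 at -0.54 (SE 0.32). JAM3 had a low level, 1.47 CPM in M2-exo treated and 2.14 CPM in untreated cells. Of the angulins, which recruit tricellulin to tricellular contacts, only LSR was tested (168 ± 49.0 CPM in M2-exo treated and 165 ± 92.7 CPM in untreated cells, log2 0.02), and its change was 0.55 without untreated 3 and -0.29 without untreated 1.

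Other MARVEL-domain genes had a median of -0.02 over 13 tested, led in level by MAL2 (81.8 FPKM over the 6 libraries; log2 -0.08) and SYPL1 (63.6 FPKM; log2 -0.05). Claudins, the strand-forming proteins that the plaque anchors, had a median of 0.008 over 10 tested, with CLDN4 at 0.08 and CLDN7 at 0.01. Genes of junction contractility had a median of -0.04 over 11 tested (RHOA -0.04, MYH9 -0.05, ARHGAP17 -0.15), which turned to 0.035 without treated 1 and 0.018 without treated 3. Genes of trafficking and turnover had a median of 0.03 over 5 tested, with ITCH, an occludin ubiquitin ligase, at 0.03. MICALL2, a RAB13 effector that acts in occludin recycling, was at 0.52 (SE 0.31), with 6.52 CPM in M2-exo treated and 4.53 CPM in untreated cells.

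The exosomes themselves were sequenced for small RNA in 1 M2-exo and 1 M0-exo library (M0, unpolarised), with totals of 9929 and 13584 miRNA counts. Of 5 miRNAs listed as reported to act on occludin or ZO-1 mRNA, miR-144-3p and miR-675-5p were not analysed here. The sequences of the other 3 are shown because the series concerns transfer of miRNA into epithelial cells. They are RefSeq mature sequences of GRCh38.p14, with the seed (bases 2 to 8) in capitals.
miR-122-5p: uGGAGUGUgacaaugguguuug
miR-212-3p: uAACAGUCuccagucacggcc
miR-429: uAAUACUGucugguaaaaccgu
The 3 seeds differ from each other. The one with more than 2 counts in either library was miR-122-5p, reported to lower occludin, with 22 counts in M2-exo (0.222% of counts, exact Clopper-Pearson 95% interval 0.139 to 0.335) and 24 counts in M0-exo (0.177%, 0.113 to 0.263). Its intervals overlap. It ranked 48 in M2-exo and 55 in M0-exo among 286 listed miRNAs. For a count of 0, the limit given is 3 counts of the library's total, not a Clopper-Pearson bound. miR-429 had 2 counts in M2-exo and 0 in M0-exo, where that limit is 0.0221%. miR-212-3p had 0 counts in M2-exo, with a limit of 0.0302%, and 1 count in M0-exo. With 1 library a group these values have no replicate check, and intervals and limits cover counting error only.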

How the data were processed

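The authors deposited a gene table of whole-number counts for 58735 Ensembl genes, a matching FPKM table and a miRNA table with counts and TPM. The submitters' processing notes name CASAVA, HISAT2, featureCounts, Bowtie and GRCh38, without role or version; they state neither a strand setting nor the handling of shared reads. Each deposited FPKM value equals the count divided by gene length and a constant per column. TPM as deposited was read but not needed. In each gene table, 3 columns match no sample and were not used.

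Counts of the 3 M2-exo treated and 3 untreated libraries went into edgeR 4.0.16 under R 4.3.3 (low counts dropped by filterByExpr, TMM scaling, quasi-likelihood F test, 2-sided, Benjamini-Hochberg at 0.05 over 15084 genes). Each SE was obtained as the absolute log2 fold change over the root of its F. The test was tried on simulated data first. Ratios and intervals used scipy 1.17.1. Alternatives were DESeq2 1.42.0, limma 3.58.1 (voom, and log2(FPKM + 1) and log2(FPKM + 0.1)), RLE factors, total counts, other filters, no mitochondrial genes, a replicate block, and leaving out each library in turn. All 149 list memberships were matched to the table, 1 through a reference symbol. Members, lists and miRNAs were chosen with earlier results of these data known. The rule for named genes took all members, up to 3 highest and lowest changes and the 2 highest FPKM of each list, the nearest profiles of the 2 members that changed most, and overlapping genes; some of these are named. CDC42 and the untested factors were named after their values were seen. One gene of the plaque adaptor list is not reported here by name.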

Additional observations from a re-analysis of the deposited data

How the results depend on the processing

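Under all 16 alternatives, 0 members were called (lowest adjusted p 0.957). CGN (-0.28 to -0.12), MARVELD3 (-0.30 to -0.10), F11R (-0.14 to -0.05) and PARD3 (0.04 to 0.19) kept their direction in all 16. Without untreated 3, TJP1 turned to -0.020, TJP3 to 0.18 and OCLN to -0.030. Without treated 1, OCLN turned to -0.014 and MARVELD2 to -0.064. With each library left out, TJP1 ranged from -0.020 to 0.16, TJP3 from -0.33 to 0.18, OCLN from -0.030 to 0.15 and MARVELD2 from -0.064 to 0.21. The causes were not tested. Without untreated 1, CGN had an unadjusted p of 0.0486, as 2.38% of genes tested then had one under 0.05, and an adjusted p of 0.957.

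The number of members above 0 ranged from 2 (without treated 1) to 4 when each library was left out. The median over members was 0.020 by limma-voom, 0.026 on log2(FPKM + 0.1), 0.023 on log2(FPKM + 1) and 0.020 with the replicate block, and ranged from -0.039 to 0.027 when each library was left out. With each library left out, the log2 difference of the TJP3 to TJP1 ratio ranged from -0.49 to 0.26, that of MARVELD2 to OCLN from -0.051 to 0.091 and that of MARVELD3 to OCLN from -0.42 to -0.06. Of the 9 lists, only that of JAM relatives (-0.20 to -0.019) kept the sign of its all-library median when each library was left out. Plaque adaptors, at -0.0003 with all libraries, were above 0 with each library left out. The medians ranged from -0.29 to 0.55 for angulins (LSR alone), -0.19 to 0.31 for claudins, -0.12 to 0.11 for polarity genes, -0.071 to 0.11 for transcription factors, -0.062 to 0.035 for contractility, -0.015 to 0.16 for trafficking, -0.0049 to 0.070 for other MARVEL-domain genes and 0.0036 to 0.059 for plaque adaptors. The order of members by mean FPKM was the same in 7 of 7 alternatives, which were TPM and leaving out each library in turn. TPM came from the same counts and gene lengths and cannot change the order within a library. None of the 7 varied gene length or the counting of overlaps, so those uncertainties remain.

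Over all genes, 0 to 1 were called when each library was left out (BOLA2B, log2 5.00, adjusted p 0.00625 by edgeR, without treated 2) and 6 with no filter on low counts (C6orf48, EGR1, RN7SL2, U2AF1L5, BOLA2B and SMIM11A), none of them a member. The replicate block called 0 genes, with 211 at an unadjusted p under 0.05. Same-numbered libraries had correlations of deviations of 0.281, -0.0648 and 0.481. Treated 1 and treated 3 each correlated best with the untreated library of the same number. Treated 2 correlated best with untreated 1, at only 0.0741. These values do not settle whether the numbers pair the libraries. With 3 libraries a group, member changes smaller than the intervals, of median half-width 0.33 (log2), could not be resolved, and 9929 and 13584 miRNA counts limit the exosome shares.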
